A study of Sus scrofa with 6 samples.

Results

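Pig oocytes store fat, and 10 genes of that store and of its use were followed in oocytes from large and from small ovarian follicles. The 10 genes are those of a named list: the lipoxygenase gene ALOX15B, the lipid droplet coat genes PLIN2 and PLIN3, the acyl-CoA synthetase genes ACSL1, ACSL3 and ACSL4, the carnitine palmitoyltransferase genes CPT1A and CPT2, the triacylglycerol synthesis gene DGAT1 and the lipase gene PNPLA2. All 10 were found among the 19271 named rows of the count table, and all 10 passed the filter on low counts. The list was chosen by role in lipid use with the large against small comparison of these counts known: ALOX15B was taken in because that comparison had called it, and ACSL3 and CPT2 had been named from it before. Differences of the 10 genes between the groups are therefore given as a description. Where adjusted p values of the 10 are printed, they come from fits across all genes and lend the 10 no support. The levels of the genes relative to each other are what the choice did not use.

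The oocytes came from prepubertal gilts slaughtered at an abattoir, and the labels give no breed, no age beyond that stage and no treatment. Large follicles were 3 to 6 mm across and small follicles 1.5 to 1.9 mm, and the 2 classes were aspirated with needles of different gauge. The cumulus cells had been stripped off before total RNA was taken, from 3 replicates a group. The protocol names 360 oocytes without saying whether per group or in all, so each library is a pool, and nothing says that the replicates came from separate sets of ovaries: the spread between them may be technical. The series relates the transcripts to the developmental competence of the oocytes, and follicle size is the contrast that its labels carry.

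Cells keep triacylglycerol and sterol esters in lipid droplets, organelles with a neutral core and a coat of perilipins. Fatty acids enter metabolism once an acyl-CoA synthetase has joined them to coenzyme A. DGAT enzymes place them in triacylglycerol, and PNPLA2, also called adipose triglyceride lipase, starts their release. Long-chain acyl groups reach the mitochondrial matrix through the carnitine shuttle, in which a CPT1 enzyme of the outer membrane makes the acylcarnitine and CPT2 of the inner membrane reverses the step, and β-oxidation follows there. Pig oocytes are known for their high lipid content and many droplets, and fatty acid oxidation is known to support oocyte maturation in mammals. Lipoxygenases such as ALOX15B add oxygen to polyunsaturated fatty acids.

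Total counts ran from 8015357 in large-follicle library 3 to 56887282 in large-follicle library 2. The first principal component of log2 CPM, 39.2% of the variance, set large-follicle library 3 at 54.5, with the other 5 libraries between -15.0 and -6.03. This library is both the shallowest and the one that stands apart. Values of the 10 genes that rest on it are therefore also given without it, or with single libraries left out in turn. The 11 oocyte markers summed to 15749 to 17893 CPM in large-follicle and 19759 to 20918 CPM in small-follicle libraries (exact two-sided permutation test, p = 0.1, the smallest that 3 against 3 can give). They did not all go the same way. GDF9, BMP15, ZP2, ZP3, ZP4, FIGLA, ZAR1 and KIT were lower in large-follicle libraries without overlap of the groups. BTG4 and WEE2 were higher without overlap (log2 differences, large minus small, 0.26 and 0.21), and MOS overlapped (-0.04). Of all genes tested, 23.7% did not overlap. The 17 granulosa and cumulus markers in the table summed to 198 to 341 CPM and 155 to 340 CPM (exact p = 1). The corresponding sums were 12.2 to 14.2 and 14.2 to 16.1 CPM for 10 theca and stromal markers (exact p = 0.2), and 6.05 to 8.96 and 6.72 to 7.34 CPM for 9 blood, immune and endothelial markers (exact p = 1). AMH, AMHR2 and PTX3 were at 0 reads in at least 1 library among the granulosa and cumulus markers, as were CYP17A1, LHCGR, INSL3, ACTA2 and LUM, and CD68, HBB, AIF1, VWF and CDH5, in the other lists. In bulk RNA of this kind, fewer cells of a type and less RNA per cell cannot be told apart.

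Levels of different genes were compared in TPM, the authors' deposited values, which are scaled by gene length and to the same total in every library. ACSL3, which encodes the acyl-CoA synthetase found on the endoplasmic reticulum and on nascent lipid droplets, was the most abundant of the 10 transcripts. It stood at 828 ± 72.6 TPM in large-follicle and 666 ± 24.0 TPM in small-follicle oocytes (mean ± SD, n = 3 libraries each), and 0.659% of all rows had a higher mean. PLIN2 came next at 110 ± 10.5 and 108 ± 7.31 TPM, and its mean over the 6 libraries was 6.85-fold below that of ACSL3. ACSL1 (70.8 ± 11.4 and 71.1 ± 4.54 TPM), CPT2 (56.3 ± 5.10 and 74.1 ± 3.85 TPM) and PNPLA2 (55.7 ± 6.07 and 65.1 ± 0.973 TPM) followed close together.

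Taken over both groups together, these middle places in the order were not separated beyond the spread of the libraries. The ranges of ACSL1 and CPT2 over the 6 libraries overlapped, with ACSL1 the higher in 3 of 6, and so did those of CPT2 and PNPLA2, with CPT2 the higher in 5 of 6. ALOX15B (35.1 ± 1.94 and 19.6 ± 1.72 TPM) overlapped ACSL4 (17.7 ± 2.04 and 18.3 ± 1.17 TPM), and PLIN3 (10.4 ± 1.01 and 13.5 ± 0.783 TPM) overlapped DGAT1 (9.40 ± 0.369 and 10.98 ± 0.388 TPM). The first of each pair was the higher in 5 of 6. Within the large-follicle libraries alone, ALOX15B (32.9 to 36.6 TPM) lay wholly above ACSL4 (16.4 to 20.0 TPM). Within the small-follicle libraries alone, CPT2 lay wholly above PNPLA2, and PLIN3 above DGAT1. The other neighbours did not overlap in any library, and the last step was the widest: the mean of DGAT1 was 97.4-fold that of CPT1A, which stood at 0.0699 ± 0.0471 and 0.139 ± 0.0522 TPM.

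**Figure D1:**
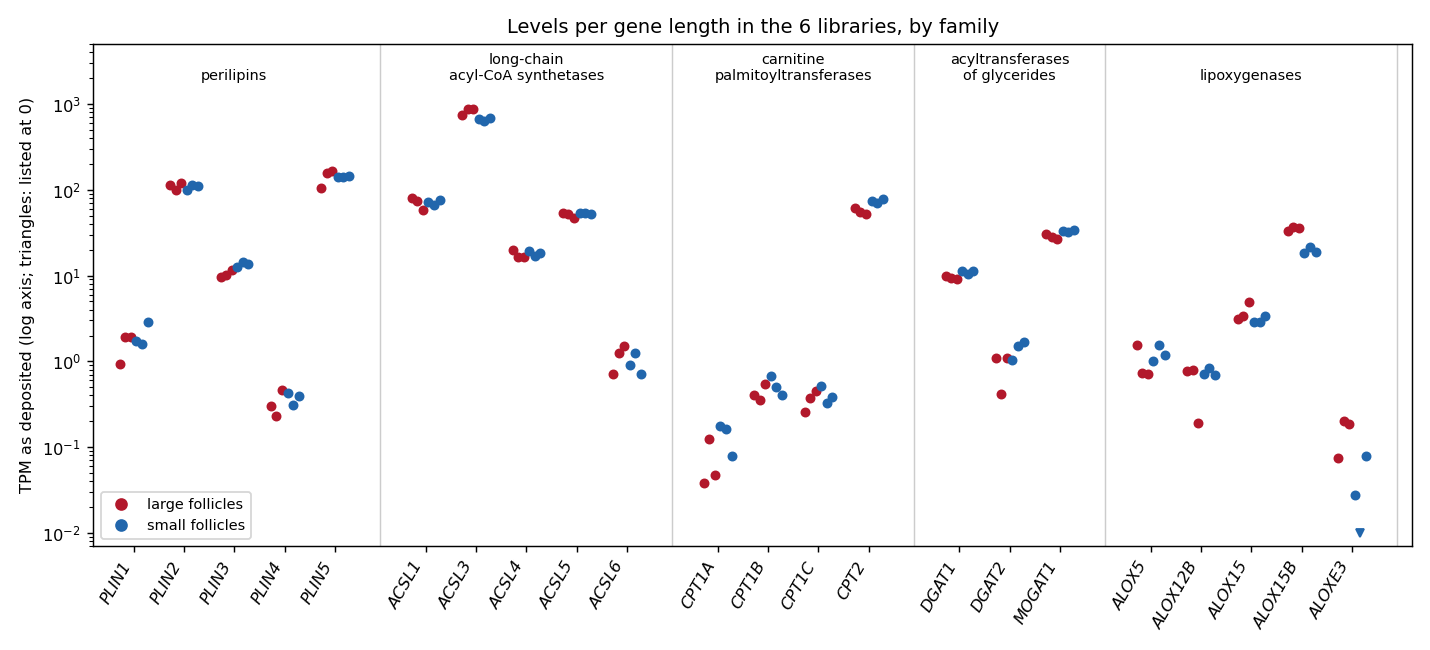
Deposited TPM of each gene in the 6 libraries on a log axis, by gene family, with large-follicle libraries in red and small-follicle libraries in blue. ACSL3 lies between 639 and 871 TPM in all libraries, PLIN2 and PLIN5 lie close together near 100 TPM and above, and CPT1A, CPT1B and CPT1C all lie under 1 TPM while CPT2 lies above 50 TPM.

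The droplet coat was represented mainly by 2 perilipins. PLIN2, the perilipin that coats droplets in most cell types and is degraded when droplets are lost, lies on chromosome 1 from 203683867 to 203709277 in assembly Sscrofa11.1, where a transcribed pseudogene overlaps it. Its read count, scaled by TMM library sizes and given as CPM, was 194, 166 and 209 CPM in large-follicle libraries 1, 2 and 3, and 169, 198 and 185 CPM in small-follicle libraries 1, 2 and 3. The groups overlapped, with the highest and the lowest value both in the large-follicle group, and the log2 difference, large minus small, was 0.04 (SE 0.099). Its sign turned with library size alone (-0.0082) and without large-follicle library 3 (-0.033) or small-follicle library 1 (-0.016).

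PLIN3, a perilipin that moves from the cytosol onto droplets as they form, lies on chromosome 2 from 73970149 to 73995314. It was counted at 13.6, 14.0 and 16.5 CPM in large-follicle and 17.6, 20.2 and 18.9 CPM in small-follicle libraries. Every large-follicle value was below every small-follicle value, with large-follicle library 3 nearest to the other group. The log2 difference was -0.38 (SE 0.11), and -0.45 without large-follicle library 3. In that library PLIN3 rested on 134 reads.

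Of the summed TPM of 5 perilipin genes, PLIN2 made up 36.9% to 49.2% over the 6 libraries and PLIN3 3.78% to 5.23%. The largest share went to PLIN5, a perilipin known for tying droplets to mitochondria in oxidative tissues, at 46.0% to 58.5%. PLIN5 stood at 142 ± 32.3 TPM in large-follicle and 143 ± 2.85 TPM in small-follicle oocytes, and was above PLIN2 in all libraries except large-follicle library 1, where its level was 0.935 times that of PLIN2. PLIN1, the perilipin of fat cells, and PLIN4 stayed at or under 1.04% and 0.166% of the sum. PLIN1 and PLIN4, like the other relatives of the 10 genes shown in the plot of levels by family, were named after their values were seen.

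Among the acyl-CoA synthetases ACSL3 was the dominant transcript and stood higher in large-follicle oocytes. The gene lies on chromosome 15 from 124741986 to 124816955. Its counts were 1254, 1427 and 1483 CPM in large-follicle and 1115, 1082 and 1132 CPM in small-follicle libraries, so that the lowest large-follicle library still lay above the highest small-follicle one. The log2 difference was 0.32 (SE 0.080), and 0.27 without large-follicle library 3, which held the highest value.

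ACSL1, the synthetase known from liver, heart and fat for feeding both storage and oxidation, lies on chromosome 15 from 45866858 to 45936327. It stood at 115, 101 and 84.0 CPM in large-follicle and 99.7, 94.5 and 105 CPM in small-follicle libraries. The large-follicle values enclosed all small-follicle ones, with large-follicle library 3 the lowest of the 6, and the log2 difference of 0.01 (SE 0.11) changed sign under several settings (-0.046 with library size alone). ACSL4, a synthetase with a preference for arachidonic acid, lies on chromosome X from 89760863 to 89838103. Its counts were 35.1, 28.4 and 29.0 CPM in large-follicle and 33.3, 29.98 and 31.8 CPM in small-follicle libraries. The groups overlapped here too, with a log2 difference of -0.04 (SE 0.10) that was 0.03 without large-follicle library 2.

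Within the summed TPM of 5 ACSL genes, ACSL3 took 82.7% to 87.6% in large-follicle and 82.3% in each small-follicle library. ACSL1 took 5.90% to 9.01% and 8.54% to 9.06%, and ACSL4 1.64% to 2.23% and 2.19% to 2.36%. ACSL5, a synthetase of mitochondria and endoplasmic reticulum, was close to ACSL1 in level, at 46.7 to 53.5 TPM over the 6 libraries, and ACSL6, at 0.713 to 1.53 TPM, was at most 0.163% of the sum. The level of ACSL3 was 9.18, 11.9 and 14.9 times that of ACSL1 in large-follicle libraries 1, 2 and 3 and 9.40, 9.63 and 9.08 times in the small-follicle libraries.

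DGAT1 and PNPLA2, which act at opposite ends of triacylglycerol turnover, both stood slightly lower in large-follicle oocytes. DGAT1, the endoplasmic reticulum enzyme that adds the last acyl chain, lies on chromosome 4 from 452890 to 463665, where HSF1 overlaps it. It was counted at 18.8, 17.7 and 17.7 CPM in large-follicle and 21.3, 20.5 and 21.2 CPM in small-follicle libraries. The groups did not overlap, and the log2 difference was -0.22 (SE 0.089). DGAT1 made up 86.9% to 95.8% of the summed TPM of DGAT1 and DGAT2. MOGAT1, which makes diacylglycerol from monoacylglycerol, was at 2.92 to 3.09 times the level of DGAT1 in TPM.

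PNPLA2 lies on chromosome 2 from 513065 to 517962. Its counts were 38.5, 42.2 and 35.4 CPM in large-follicle and 44.8, 45.05 and 45.3 CPM in small-follicle libraries, again without overlap. The log2 difference was -0.21 (SE 0.086), and -0.16 without large-follicle library 3, the lowest of the 6. The small-follicle libraries were nearly equal, with a coefficient of variation of 0.528% against 8.80% in the large-follicle libraries. HILPDA, known in human and mouse as an inhibitor of this lipase, was among the most abundant transcripts of the lipid genes at 1412 to 1924 TPM, and 0.208% of all rows had a higher mean. HILPDA stood at 22.1 to 38.5 times the level of PNPLA2 over the 6 libraries. Its own log2 difference of 0.19 (SE 0.11) did not pass the test across all genes (edgeR's quasi-likelihood test, adjusted p = 0.384). The difference lay between 0.07 and 0.30 when single libraries were left out, and large-follicle library 3 held the highest value.

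**Figure D2:**
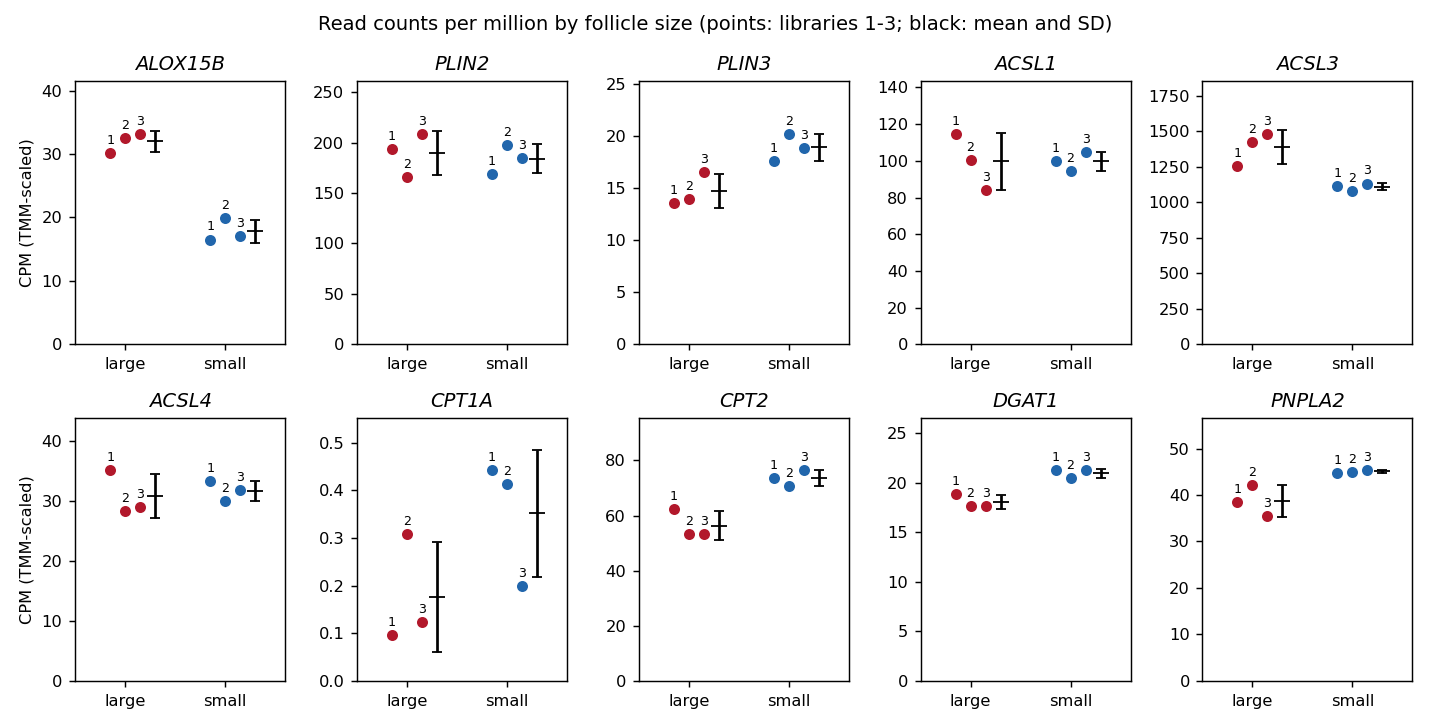
TMM-scaled CPM of the 10 genes, on linear axes from 0, with libraries 1 to 3 of each group as numbered points and the group mean and SD in black. ALOX15B and ACSL3 have all 3 large-follicle libraries above the small-follicle ones, PLIN3, CPT2, DGAT1 and PNPLA2 have them all below, and the groups overlap for PLIN2, ACSL1, ACSL4 and CPT1A.

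The 2 carnitine palmitoyltransferases stood far apart in level. CPT2 lies on chromosome 6 from 159038129 to 159061327 and was counted at 62.3, 53.3 and 53.2 CPM in large-follicle and 73.8, 70.6 and 76.4 CPM in small-follicle libraries. All large-follicle values were below all small-follicle values, and the log2 difference was -0.39 (SE 0.087). It ranged from -0.47 to -0.34 when each library was left out in turn.

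CPT1A, the liver isoform of the outer-membrane enzyme and the step that malonyl-CoA inhibits, lies on chromosome 2 from 4250642 to 4293914. It had 2, 17 and 1 reads in large-follicle and 25, 14 and 8 reads in small-follicle libraries. These are 0.0969, 0.308 and 0.123 CPM, and 0.442, 0.414 and 0.199 CPM. The groups overlapped, and the log2 difference of -0.70 (SE 0.54) moved between -1.72 and -0.41 when single libraries were left out. Its sign was negative in all 15 alternatives that gave a value, but its SE is close to its size and 1 to 25 reads a library stand behind it. The muscle isoform CPT1B (0.355 to 0.674 TPM) and the brain isoform CPT1C (0.254 to 0.512 TPM) were also under 1 TPM in every library. CPT2 was at 50.0 to 89.9 times the sum of the 3 CPT1 genes in TPM.

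The other genes of the shuttle had levels nearer to CPT2. SLC25A20, the carrier that exchanges acylcarnitine and carnitine across the inner membrane, stood at 46.4 ± 4.09 TPM in large-follicle and 47.0 ± 2.36 TPM in small-follicle oocytes, with a log2 difference of -0.02 (SE 0.10; edgeR's quasi-likelihood test, adjusted p = 0.939). CROT, the peroxisomal carnitine octanoyltransferase, was the most abundant, at 193 ± 15.2 and 253 ± 19.5 TPM, or 3.15 to 3.92 times the level of CPT2. Its log2 difference was -0.39 (SE 0.092; adjusted p = 0.104 by edgeR) and did not pass. CRAT, the carnitine acetyltransferase, was at 7.64 ± 0.639 and 9.52 ± 0.314 TPM, with a difference of -0.32 (SE 0.11; adjusted p = 0.168 by edgeR).

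ALOX15B had the largest difference of the 10 genes and stood higher in large-follicle oocytes. It was counted at 30.1, 32.6 and 33.2 CPM in large-follicle libraries 1, 2 and 3, and at 16.5, 19.9 and 17.0 CPM in small-follicle libraries 1, 2 and 3. The lowest large-follicle library was well above the highest small-follicle library, and the mean fold was 1.80, a log2 difference of 0.85 (SE 0.10). Reads per library ran from 269 in large-follicle library 3 to 1801 in large-follicle library 2. The log2 difference lay between 0.79 and 0.93 when single libraries were left out, and was 0.82 without large-follicle library 3. The call that brought the gene onto the list was narrow, at an adjusted p = 0.0499 in the quasi-likelihood fit of edgeR across all genes. That value was 0.0239 and 0.00530 without large-follicle library 1 or 3, and the call was lost without large-follicle library 2 (0.149) and without small-follicle library 1, 2 or 3 (0.330, 0.388 and 0.155).

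Among 5 lipoxygenase genes in the table, ALOX15B made up 85.6% to 87.7% of the summed TPM in large-follicle and 78.2% to 80.3% in small-follicle libraries. ALOX15 was next, at 2.90 to 4.93 TPM over the 6 libraries, and its log2 difference of 0.29 (SE 0.18) did not pass (adjusted p = 0.423 by edgeR). ALOX5, ALOX12B and ALOXE3 reached at most 1.57, 0.840 and 0.201 TPM. PLA2G4A, the cytosolic phospholipase that frees arachidonic acid from membranes, was well expressed at 148 ± 26.7 and 139 ± 1.598 TPM, with a difference of 0.10 (SE 0.11; adjusted p = 0.670 by edgeR). GPX4, the peroxidase that reduces lipid hydroperoxides, stood at 20.9 ± 6.92 and 23.4 ± 1.79 TPM, a difference of -0.21 (SE 0.20; adjusted p = 0.621 by edgeR). When single libraries were left out, the difference of PLA2G4A lay between 0.03 and 0.23 and that of GPX4 between -0.46 and -0.04. Without large-follicle library 3 edgeR called both, beside 14.5% of all genes tested.

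Named genes with a mean of at least 5 CPM were ranked by the root mean square difference between their centred log2 CPM and that of a given gene over the 6 libraries, among 9161 genes. Nearest to ALOX15B were ZC4H2 (0.130), SASH1 (0.177) and IFIT5 (0.179). Their levels in large-follicle and small-follicle oocytes were 7.57 ± 0.511 and 4.78 ± 0.0982 CPM for ZC4H2, 16.8 ± 0.903 and 10.8 ± 0.728 CPM for SASH1, and 99.1 ± 16.1 and 65.1 ± 1.22 CPM for IFIT5. Nearest to PLIN2 were SNX10 (0.0276), MORN2 (0.0328) and HRG (0.0351). All 6 profiles were picked for their likeness, which is a description of these 6 libraries.

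Over the 10 genes, 6 had lower and 4 higher means in large-follicle oocytes, with a median log2 difference of -0.12, beside 0.0039 for all 14091 genes tested. The groups did not overlap for 6 of the 10, higher in 2 and lower in 4. Among all genes tested 23.7% did not overlap, 12.1% with higher and 11.6% with lower values in large-follicle oocytes. By edgeR 1 of the 10, ALOX15B, was among the 9 genes called, 0.0639% of all tested. Genes called higher in large-follicle oocytes were 0.0142% of all tested, and genes called lower 0.0497%. An unadjusted p under 0.05 was found for 6 of the 10 and for 18% of all genes. DESeq2 called ALOX15B, ACSL3 and CPT2 among the 10, and 5.04% of all genes. Without large-follicle library 3 edgeR called ALOX15B, ACSL3, CPT2 and PLIN3, and 14.5% of all genes. Because the list was drawn up with this comparison known, nothing is read from these counts.

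**Figure D3:**
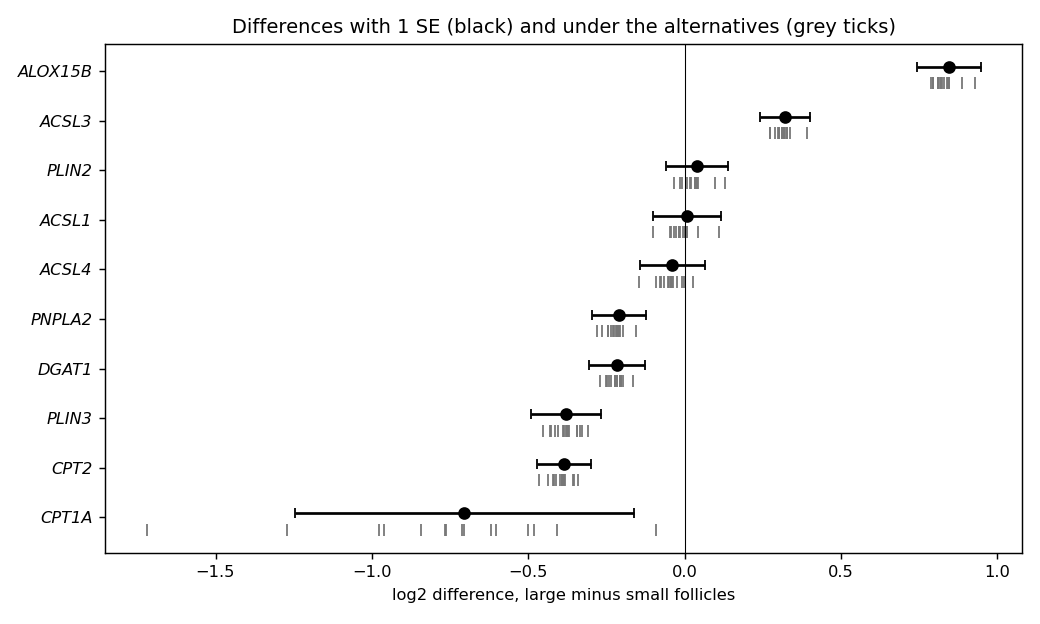
Log2 difference, large minus small follicles, of the 10 genes in the fit with all 6 libraries (black point, bar 1 SE) and under each alternative that gave a value (grey ticks). ALOX15B stays between 0.79 and 0.93 and CPT2 between -0.47 and -0.34, while the ticks of PLIN2, ACSL1 and ACSL4 lie on both sides of 0 and those of CPT1A spread widest.

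The 10 genes did not share a profile over the libraries. PLIN2 and PLIN3 were above their own means in small-follicle library 2 (0.09 and 0.28 on the log2 scale) and below them in large-follicle library 2 (-0.17 and -0.25). ACSL1 and ACSL4 were highest in large-follicle library 1 (0.21 and 0.17), where ACSL3 was at 0.02. In large-follicle library 3 the deviations ran from -0.27 for CPT2, -0.24 for ACSL1 and -0.23 for PNPLA2 to 0.48 for ALOX15B, leaving out CPT1A with its single read there. For the sum of the granulosa and cumulus markers the deviations were -0.30, -0.20 and 0.48 in large-follicle and 0.48, 0.20 and -0.66 in small-follicle libraries. A large part of that sum came from VCAN (80.8 to 124 CPM over the 6 libraries) and GREM1 (34.1 to 40.6 CPM). Single markers varied more than the sum, such as GJA1 (1.56 to 19.6 CPM) and INHA (2.59 to 22.1 CPM). The part of the granulosa and cumulus markers in the values of the 10 genes was not tested. In the small-follicle libraries with the most and the fewest marker reads, ALOX15B was at -0.53 and -0.48 and ACSL3 at -0.15 and -0.13. CPT2 was at 0.20 and 0.25 there, DGAT1 at 0.13 in both, PLIN2 at -0.14 and -0.01, and PLIN3 at 0.08 and 0.18. ACSL1 was at 0.01 and 0.08, ACSL4 at 0.09 and 0.03, PNPLA2 at 0.10 and 0.12, and CPT1A at 0.78 and -0.19. From large-follicle library 1 to 3, where the marker sum rose, ALOX15B (0.34, 0.45 and 0.48), ACSL3 (0.02, 0.20 and 0.26) and PLIN3 rose. ACSL1, CPT2 and DGAT1 fell, and the other genes did neither.

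Replicates of the large-follicle group spread more than those of the small-follicle group. The coefficient of variation of CPM was larger in the large-follicle group for 9 of the 10 genes, ALOX15B being the exception, and for 80.3% of all genes tested. Without large-follicle library 3 it was larger for 8 of the 10 and for 57.8% of all genes. Among the 10 genes the small-follicle coefficient of variation was lowest for PNPLA2 and highest for CPT1A (37.8%).

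**Figure D4:**
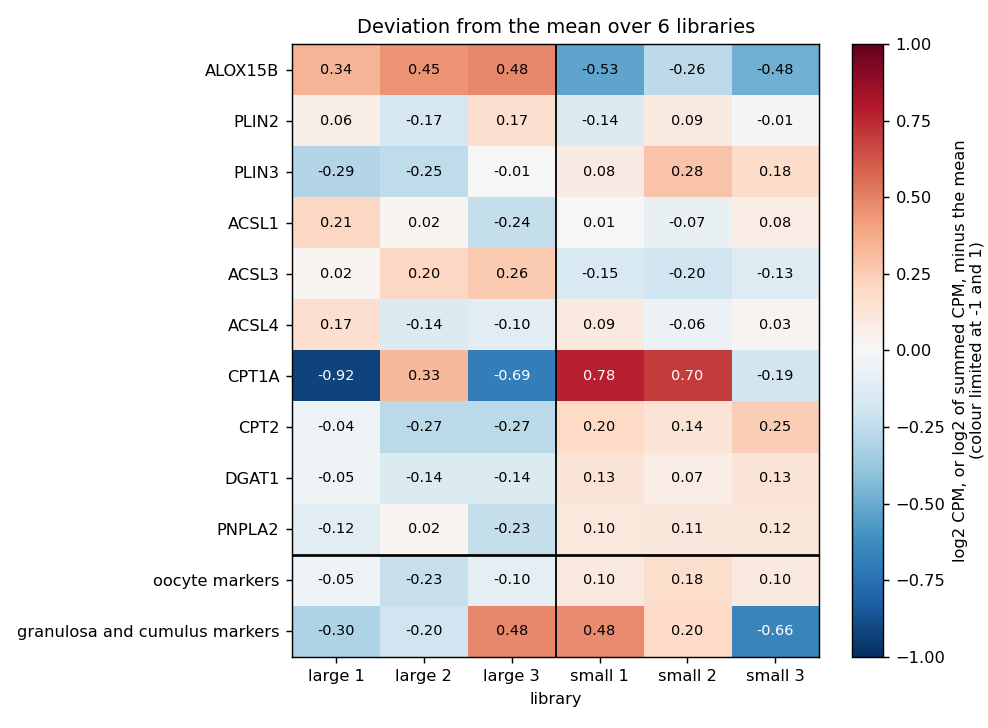
Deviation of each gene's log2 CPM from its mean over the 6 libraries, and of the log2 summed CPM of 2 marker lists, with large-follicle libraries on the left. ALOX15B and ACSL3 are above their means in all 3 large-follicle libraries and below in all 3 small-follicle ones. CPT2, DGAT1 and PLIN3 are the reverse, PLIN3 by only -0.006 in large-follicle library 3. The granulosa and cumulus markers swing within both groups.

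A wider list set the 10 genes beside 123 other genes of lipid use in 11 roles, of which 115 were in the table and 106 were tested. None of the 106 passed edgeR's quasi-likelihood test, with 11 at an unadjusted p under 0.05, beside 18% of all genes tested. DESeq2 called 3 of them, beside 5.04% of all genes, all lower in large-follicle oocytes: CROT, FASN and VLDLR. limma on log2 TPM called 0, with 14 of the 106 and 2161 to 2181 of all genes at an unadjusted p under 0.05. Without large-follicle library 3 edgeR called 11, 5 higher and 6 lower, beside 14.5% of all genes, and without large-follicle library 1 it called VLDLR. ACADM, DDHD2, PLA2G4A and PPARG were among the 5, and CROT, CRAT, ECHS1, ETFB, GPX4 and SLC27A4 were the 6. Lower means in large-follicle oocytes were found for 74 of the 106, with a median log2 difference of -0.089. Of all genes tested 49.2% had lower means, with a median of 0.0039. The number lower stayed between 68 and 77 in settings that kept these 106 genes, except with library size alone, where it was 83 and 58.7% of all genes were lower. The groups did not overlap for 18.9% of the 106, higher in 4 and lower in 16, beside 23.7% of all genes tested. ACADM and PPARG were among the 4. CROT, CRAT, ACOX3, MOGAT1, LPIN3, LIPE and SLC27A1 were among the 16.

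Storage genes went in both directions. In droplet coat and assembly 5 of 7 tested genes had lower means (median -0.07), and in triacylglycerol and sterol ester synthesis 7 of 14 did (median -0.01). In the alternatives that tested the same genes, the droplet list had 3 to 5 lower with a median of -0.18 to 0.13, and the synthesis list 6 to 12 lower with a median of -0.07 to 0.04, so the sign of both medians turned. BSCL2, which encodes seipin, a protein of droplet assembly, differed by -0.19 (SE 0.13; adjusted p = 0.486 by edgeR). The phosphatidate phosphatase gene LPIN2 had the highest TPM of these synthesis genes, at 259 ± 16.7 and 246 ± 8.33 TPM (difference 0.08, SE 0.068; adjusted p = 0.563), and its relative LPIN3 differed by -0.26 (SE 0.16; adjusted p = 0.419). GPAT4, which adds the first acyl chain to glycerol phosphate, stood at 84.9 ± 6.90 and 84.8 ± 4.25 TPM. MOGAT1 differed by -0.21 (SE 0.11; adjusted p = 0.360 by edgeR). In lipolysis 5 of 7 had lower means (median -0.11). There the phospholipase gene DDHD2 was the most abundant at 138 ± 21.2 and 123 ± 4.795 TPM (difference 0.17, SE 0.10; adjusted p = 0.391), ahead of the lysosomal lipase gene LIPA at 22.4 ± 2.61 and 23.9 ± 1.43 TPM. LIPE, hormone-sensitive lipase, differed by -0.11 (SE 0.092; adjusted p = 0.541 by edgeR). Of the 5 lower genes of lipolysis, MGLL, G0S2 and PNPLA3, named for their low counts, had 0 to 42, 1 to 26 and 3 to 27 reads a library.

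In fatty acid activation, 7 of 9 tested genes had lower means (median -0.13). Of the 7, SLC27A3, SLC27A5 and ACSS1, named for their low counts, had 4 to 72, 2 to 37 and 2 to 85 reads a library. SLC27A1 and SLC27A4, fatty acid transport proteins with acyl-CoA synthetase activity, differed by -0.31 (SE 0.14; adjusted p = 0.287 by edgeR) and -0.33 (SE 0.19; adjusted p = 0.387). ACSS2, which activates acetate, stood at 91.7 ± 3.78 and 94.0 ± 1.89 TPM. All 5 other carnitine shuttle genes had lower means (median -0.32), of which SLC25A20 turned sign without single libraries. CPT1B (-0.38, SE 0.35) and CPT1C (-0.23, SE 0.37) are among the 5 and had only 7 to 59 and 5 to 38 reads a library.

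In mitochondrial β-oxidation 14 of 17 genes had lower means in large-follicle oocytes (median -0.12), and 13 to 15 were lower in the alternatives that tested the same 17. With all 6 libraries edgeR called none of them. Without large-follicle library 3 it called ACADM, ECHS1 and ETFB, beside 14.5% of all genes tested. ETFB, a partner subunit of ETFA, was named after its values were seen. ACADM, the medium-chain acyl-CoA dehydrogenase, went the other way, at 67.7 ± 5.24 and 58.6 ± 1.32 TPM, a log2 difference of 0.22 (SE 0.079; adjusted p = 0.196 by edgeR) without overlap of the groups. ECHS1, the short-chain enoyl-CoA hydratase, differed by -0.22 (SE 0.12; adjusted p = 0.371). The most abundant were ETFA, which passes electrons from the dehydrogenases to the respiratory chain, at 213 ± 8.92 and 216 ± 11.9 TPM, and HADHA, a subunit of the trifunctional protein, at 131 ± 16.6 and 142 ± 6.55 TPM. In peroxisomal β-oxidation 8 of 9 had lower means (median -0.09). ACOX3, an acyl-CoA oxidase, differed by -0.44 (SE 0.15; adjusted p = 0.190 by edgeR). ABCD3, a transporter of the peroxisomal membrane, was at 106 ± 9.31 and 116 ± 3.17 TPM and HSD17B4, the bifunctional enzyme, at 63.1 ± 3.11 and 64.6 ± 1.73 TPM.

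Genes of uptake and of synthesis were split evenly between higher and lower means. Of 4 tested uptake and binding genes 2 were lower. VLDLR, a receptor for triacylglycerol-rich lipoproteins, had the smallest p of the 4, at 50.8 ± 9.71 and 70.6 ± 2.97 TPM with a log2 difference of -0.47 (SE 0.12; adjusted p = 0.117 by edgeR). The fatty acid binding protein gene FABP3 was at 72.7 ± 15.5 and 67.6 ± 2.62 TPM. In synthesis, elongation and desaturation 8 of 16 were lower (median 0.02). FASN, fatty acid synthase, stood at 3.17 ± 0.609 and 5.01 ± 1.14 TPM (difference -0.63, SE 0.18; adjusted p = 0.139 by edgeR), far under the elongase gene ELOVL6 at 315 ± 39.1 and 296 ± 17.5 TPM and ACACA, acetyl-CoA carboxylase, at 153 ± 27.1 and 162 ± 7.998 TPM. SCD5, a desaturase, had few reads and differed by -0.96 (SE 0.33; adjusted p = 0.176).

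Of 9 regulators 6 were lower (median -0.05). PPARG, a nuclear receptor of lipid storage, stood at 108 ± 10.3 and 91.9 ± 2.23 TPM without overlap of the groups, a log2 difference of 0.25 (SE 0.081; adjusted p = 0.164 by edgeR). Its relative PPARD was at 32.3 ± 2.64 and 31.0 ± 1.75 TPM. MLYCD, which removes the malonyl-CoA that inhibits CPT1 enzymes, differed by -0.17 (SE 0.12; adjusted p = 0.453 by edgeR). Among genes of fatty acid oxygenation other than ALOX15B, 7 of 9 tested had lower means (median -0.21), and 6 or 7 were lower in the alternatives that tested the same 9. Of the 7, ALOX5, ALOX12B, ALOX5AP, PTGS1, PTGS2 and LTA4H were at 3.29 CPM or less in every library, and are named here for that. ALOX12B, ALOX5AP and PTGS2 had only 1 to 27, 2 to 19 and 0 to 52 reads a library. Of the better counted genes GPX4 was lower, while ALOX15 and PLA2G4A were higher.

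**Figure D5:**
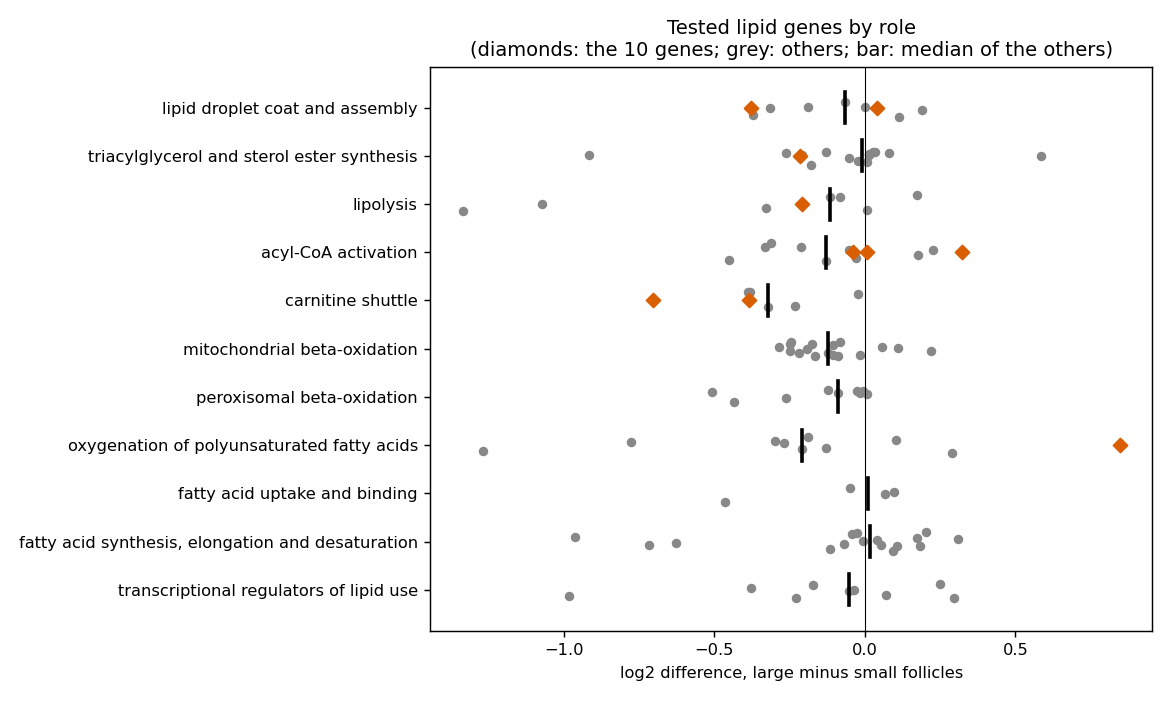
Log2 difference, large minus small follicles, of every tested gene of the wider lipid list by role, with the 10 genes as orange diamonds, the other genes as grey points and the median of the others as a bar. The bars lie between -0.32 for the carnitine shuttle and 0.02 for fatty acid synthesis, elongation and desaturation, and ALOX15B lies to the right of all other points.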

How the data were processed

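RNA of denuded oocytes was sequenced from directional libraries, per the labels' protocols, with 3 libraries from large and 3 from small follicles, grouped by sample title. The authors deposited read counts per gene and TPM values. In all 10971 genes with at least 20 reads in every library, counts per TPM agreed within 1% between libraries once scaled, so 1 length per gene underlies the TPM. Per the submitters' processing notes the genome was Sscrofa11.1. For the aligner, counter, annotation and strand setting, a name is not given in the sources used here. Reads that PLIN2 or DGAT1 might share with an overlapping gene, or any gene with a near-identical copy, therefore cannot be separated. Rows with a date as name (25, with a mean of 0.153% of reads) were left out, and 853 of 4604 Ensembl identifiers were given a symbol from a name table. Positions are RefSeq's for the same assembly, matched by symbol for 9 of the 10 genes. ALOX15B had no match.

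The fit across all genes used the quasi-likelihood F test in edgeR 4.0.16 under R 4.3.3, with TMM factors, filterByExpr, robust estimation and group alone, on 14091 genes, called at a Benjamini-Hochberg adjusted p under 0.05. The SE is the absolute log2 difference over the square root of F. CPM use the same effective library sizes. Marker sums were compared by exact permutation with scipy 1.17.1. Alternatives used DESeq2 1.42.0 and limma 3.58.1. Counts of libraries within a group differed beyond sampling noise, with a chi-square of 10.4 to 22.2 per degree of freedom, and each was counted as its own replicate.

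The members and lists were chosen with earlier results of these data known. Besides the 10 genes, the rule named, per role, genes that passed or else the 2 with the smallest p at 1 CPM or more, the 2 with the highest TPM, and the 3 genes nearest in profile to ALOX15B and to PLIN2. Names not found in the table were not analysed here, and some genes that the rule named are not reported here.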

Additional observations from a re-analysis of the deposited data

How the results depend on the processing

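Over all genes, edgeR called 9, but 0 with DESeq2 size factors or without robust estimation, although 2525 and 2550 had an unadjusted p below 0.05. limma called 0 on log2(TPM + 1) and log2(TPM + 0.1), where 2181 and 2161 did. Library size alone gave 14 calls, no filter 52, a mean of at least 5 CPM 19, thinning to the shallowest library 38 and DESeq2's own test 710. Leaving out each library gave 0 to 2048 calls over all genes (77 without large-follicle library 1, 2048 without 3 and 0 without any other, where 1472 to 1894 had an unadjusted p below 0.05 and DESeq2 called 101 to 266), 0 to 4 among the 10 genes and 0 to 15 in the wider list. The fit with the replicate number as a block called 24 genes, ALOX15B alone of the 10 (adjusted p = 0.0174 by edgeR), and ACSL1 was at -0.0035 there. Deviations of same-numbered libraries from their group means correlated at -0.0951, 0.00276 and -0.158. With 3 libraries a group, these values cannot decide whether the numbers pair the samples.

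Of the 10 genes, 0 were called with DESeq2 size factors, without robust estimation or with limma at either pseudocount, where the adjusted p of ALOX15B was 0.0535, 0.0597, 0.122 and 0.127, and 0 of the wider list, although 5 or 6 of the 10 had an unadjusted p below 0.05. DESeq2 called 3 of the 10 (adjusted p = 0.0112 for ACSL3 and 0.00555 for CPT2) and 6 of the wider list with them. Calls of the 10 repeat the comparison known when the list was chosen, so they add no support. CPT1A had no value at 5 CPM. ALOX15B, ACSL3, PLIN3, CPT2, DGAT1 and PNPLA2 kept their sign in all 16 alternatives. Signs turned where differences were near 0, and also for PLIN1 and PLIN4, which had few reads. PLIN2 was at -0.0082 with library size alone and -0.033 to 0.13 with single libraries left out. ACSL1 was at -0.046 with library size alone, -0.018 without a filter, -0.028 at 5 CPM, -0.016 on both TPM scales, -0.043 after thinning, and -0.10 to 0.11 with single libraries left out. GPAT4 was at -0.040, -0.012, -0.022, -0.00058 and -0.00061 under library size alone, no filter, 5 CPM and limma on log2(TPM + 1) and log2(TPM + 0.1). With single libraries left out it was at -0.020 to 0.061, ACSL4 at -0.15 to 0.028, PLIN5 at -0.12 to 0.17, ACSS2 at -0.054 to 0.00023, SLC25A20 at -0.095 to 0.030, ETFA at -0.066 to 0.0099, HSD17B4 at -0.074 to 0.010, FABP3 at -0.090 to 0.23 and ACACA at -0.19 to 0.052. After thinning, PLIN1 was at 0.16 and PLIN4 at 0.13, against -0.37 and -0.31 with all reads. Before thinning they had 9 to 64 and 8 to 49 reads a library. The mean log2 CPM of blood, immune and endothelial markers differed by -0.024, against a log2 ratio of sums of 0.01. The causes were not tested. Depth limits CPT1A most, with 1 to 25 reads a library.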
